A study of Mus musculus with 6 samples.

Results

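The interleukin-6 (IL-6) family and its feedback inhibitors were followed here as 9 genes chosen by symbol from the 22246 genes of the expression table: the cytokine genes Il6, Il11 and Lif, the receptor genes Il6st, Osmr and Lifr, and the suppressor of cytokine signalling genes Socs1, Socs2 and Socs3. All 9 were found by Ensembl identifier. RNA from mouse HL-1 cells was sequenced in 3 control shRNA libraries and 3 libraries labelled Smyd4 shRNA. HL-1 is an established line from an atrial tumour lineage of the mouse heart, and the labels give its strain as C57BL/6. Both groups carried a short hairpin RNA, directed against the lysine methyltransferase family gene Smyd4 in one of them; the sources used here name neither the hairpin sequences nor their vector nor the time after delivery. No label says that libraries stem from different cultures or platings, and every p-value measures only the spread between these libraries, which may be technical.

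Cytokines of this family bind receptors that share gp130, the signal-transducing chain encoded by Il6st. IL-6 and IL-11 first engage a receptor chain of their own and then bring gp130 molecules together, whereas LIF joins gp130 to the LIF receptor and oncostatin M can join gp130 to its own receptor, encoded by Osmr. The receptors activate JAK kinases, which phosphorylate STAT factors, chiefly STAT3. STAT factors induce SOCS genes, whose products bind receptors or JAK kinases and damp the signal. In the heart the family is known for growth, survival and stress responses of cardiomyocytes and for inflammatory signals from neighbouring fibroblasts.

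The libraries held between 23414484 and 25267607 recovered reads in the control group and between 20755856 and 26387606 in the labelled group. Smyd4 mRNA did not follow the label: it stood at 12.5, 12.8 and 13.5 FPKM (a read count divided by gene length and scaled for depth) in the control libraries and at 12.6, 12.3 and 11.9 FPKM in the labelled libraries. The ranges overlapped (exact two-sided permutation p = 0.2; limma, Benjamini-Hochberg adjusted p = 0.173), and every direction below is relative to the label and not to a measured loss of Smyd4 mRNA. Only when each library was rescaled to the same FPKM sum was Smyd4 called lower (log2 change -0.11; limma, adjusted p = 0.0447). Atrial cardiomyocyte markers were largely absent: of 10 listed, 1 was not analysed here, and of the other 9, Myh6, Myl7, Actc1, Ryr2, Pln and Gja5 had means below 0.1 FPKM, while Tnnt2 rose from 7.11 to 11.7 FPKM (limma, adjusted p = 6.22e-06) and Nkx2-5 from 3.58 to 7.68 FPKM (limma, adjusted p = 0.000215). Of 8 fibroblast markers, 5 reached 1 FPKM, and their list summed to between 239 and 246 FPKM in the control and between 270.2 and 282 FPKM in the labelled libraries; the list went both ways, with 2 genes higher, 2 lower and 1 that did not pass. Col1a1 rose from 37.5 to 69.3 FPKM (limma, adjusted p = 1.58e-06) and Col1a2 from 60.5 to 84.9 FPKM (2.19e-06), Col3a1 was at 114 and 116 FPKM, and Pdgfra fell from 4.35 to 2.94 FPKM (0.000143). Dcn, the decorin gene, fell from 26.2 ± 0.984 to 1.73 ± 0.336 FPKM (SD, n = 3; limma, adjusted p = 9.15e-08), the 6th largest fall of all genes tested. Of 7 macrophage markers, Ptprc, Adgre1, Csf1r and Fcgr1 were below 0.1 FPKM, Cd68 was at 1.96 and 1.72 FPKM, and Cd14 fell from 27.9 to 18.6 FPKM (limma, adjusted p = 1.53e-05). The macrophage list summed to between 29.2 and 30.6 FPKM in the control libraries and between 21.4 and 23.2 FPKM in the labelled libraries. Of its 2 tested genes 1 was lower, 0 higher and 1 did not pass. Lyz2, with a mean too low for the main comparison, went the other way without overlap, from 0.228 to 1.69 FPKM. It was higher in edgeR (adjusted p = 0.000126) and DESeq2 (0.00755) but did not pass in limma without a filter (0.134). The 5 endothelial and 2 lymphocyte markers with values summed to at most 0.612 and 0.0869 FPKM in any library, with Cdh5 and Pecam1 the highest of the endothelial ones. Among 5 smooth muscle markers, which summed to between 320.1 and 334 FPKM and between 214 and 224 FPKM, Acta2 fell from 292 to 196 FPKM (limma, adjusted p = 1.84e-06) and Smtn was at 18.7 and 17.8 FPKM, called lower only without labelled replicate 1 (limma, adjusted p = 0.0363). Tagln fell from 15.8 to 3.82 FPKM (limma, adjusted p = 1.68e-07). Of this list 2 genes were lower, 0 higher and 1 did not pass. Replicate 3 of the labelled libraries held a few more reads of several such genes. Of Lyz2, for example, it held 98 reads, against 18 and 25 in the other labelled libraries and 6 to 9 in the control libraries. The part of these markers in the results below was not tested, and in bulk RNA fewer cells of a type and less RNA per cell cannot be told apart.

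In the labelled libraries 7 of the 9 genes fell: Il6, Lif, Il6st, Osmr, Lifr, Socs2 and Socs3. Socs1 rose slightly, and Il11, with a mean of 0.314 FPKM, lay below the minimum mean of 1 FPKM and was not tested in the main comparison. That comparison used limma on log2(FPKM + 0.5) with adjustment over all 11325 genes tested. It called 23.3% of all genes tested lower, 25.1% higher and 48.3% in either direction, and the 8 tested members are to be read against that background. Of the 8, 4 (Il6, Osmr, Lifr and Socs2) were called and at least 1.5-fold lower on this scale, as were 4.87% of all genes tested. In the 7 genes that fell every labelled library lay below every control library, as in 27.6% of all genes tested, and for Socs1 every labelled library lay above, as in 30.2%. Either kind of separation held in 57.8% of all genes tested. The same 7 genes were called lower by edgeR and by DESeq2 on recovered reads, which called 26.3% and 17.6% of the genes they tested lower, and 49.5% and 32.6% in either direction. The median log2 change was -0.60 over the 8 tested members and 0.02 over all genes tested. Il6 passed the filter only through the control libraries and so had to differ.

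**Figure D1:**
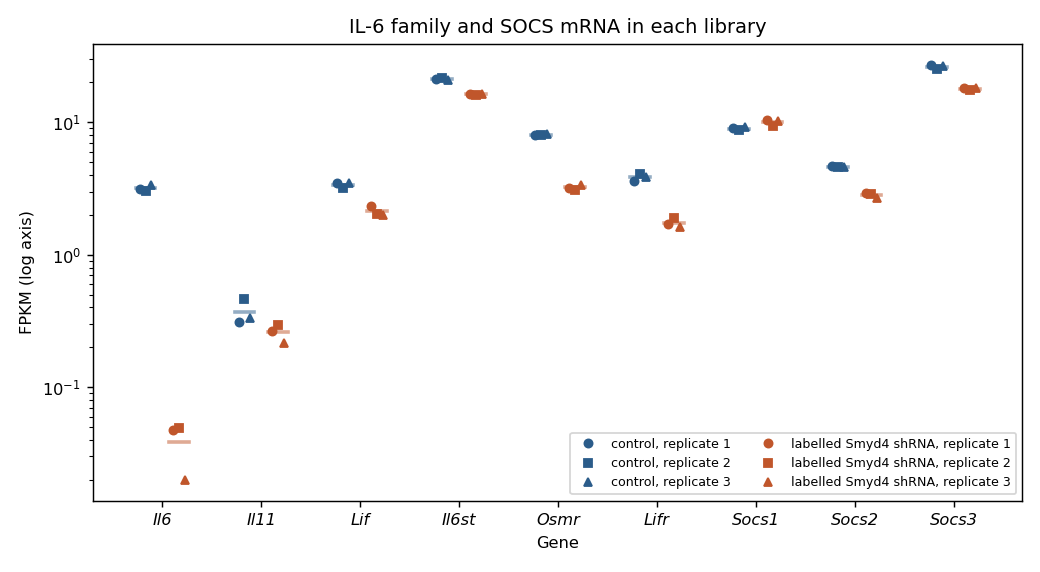
FPKM of each of the 9 genes (log axis) in the 3 control and 3 labelled Smyd4 shRNA libraries; points are libraries, marked by replicate number, and short bars are group means. The Il6 points fall from above 3 FPKM to below 0.05 FPKM, the other genes move by less than 3-fold, and Socs1 is the only gene whose labelled libraries lie above the controls.

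Il6, the gene of the founding cytokine of the family (ENSMUSG00000025746, chromosome 5, 30013114 to 30019981 on GRCm38, protein coding), showed the largest change. Its level was 3.15, 3.04 and 3.36 FPKM under control shRNA, and in the labelled libraries it was 0.0473, 0.0489 and 0.0199 FPKM. All 3 control libraries were thus high and all 3 labelled libraries close to 0, without overlap. These levels rested on 183, 175 and 207 reads in the control libraries and on 3, 3 and 1 reads in the labelled libraries. The mean went from 3.19 ± 0.163 to 0.0387 ± 0.0163 FPKM (SD, n = 3), a ratio of means of 82.3. From the summed reads, 565 against 7, the level in the control group was 79.8 times that in the labelled group, with an exact 95% interval from 38.5 to 199 that covers counting error only. On the log2(FPKM + 0.5) scale, which understates changes of low genes, the change was -2.77 (95% confidence interval -2.99 to -2.55; limma, adjusted p = 3.16e-07). That placed Il6 as the 21st largest fall of the 11325 genes tested. The size of this change rests on how low values are treated. With a pseudocount of 0.1 the log2 change was -4.57, with a pseudocount of 1 it was -2.01, in edgeR on recovered reads it was -6.25 and in DESeq2 it was -6.32, and the authors' deposited table gives -3.58. Il6 was called lower in each of these. By exact two-sided permutation of its 6 FPKM values p was 0.1, the smallest this design allows, here and for every other member.

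The sequence before the start of 3 of the genes that fell is shown because these promoters held the motif matches that the expression data can be set beside. Windows of 300 bases, from 250 before to 50 after the start, came from RefSeq on GRCm38.p6 and were available for 8 of the 9 genes, Socs2 being the other, in 10 windows. Both strands were searched for TTCNNNGAA (STAT), TTCCNGGAA (its STAT3 form, contained in the first), the NF-kB motif, TGANTCA (AP-1), TGACGTCA (CRE) and TTGCNNAA (C/EBP). The stretches below are written 5′ to 3′ on the gene's own strand and leave out bases in annotated exons; capitals mark motif matches. Il6 is from chr5:30012864-30013113 on the plus strand, Lif from chr11:4257318-4257556 on the plus strand and Socs3 from chr11:117969452-117969616 on the minus strand. All positions count from the RefSeq start. By the authors' coordinates Socs3 begins further upstream, at 117970047, so its stretch lies within the gene span given below. For Osmr all 250 bases before the RefSeq start lay in annotated exons.
Il6: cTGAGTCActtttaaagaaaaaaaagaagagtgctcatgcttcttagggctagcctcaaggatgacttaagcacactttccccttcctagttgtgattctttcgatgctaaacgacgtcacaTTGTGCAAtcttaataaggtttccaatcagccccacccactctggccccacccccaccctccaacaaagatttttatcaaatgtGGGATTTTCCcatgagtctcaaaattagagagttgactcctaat
Lif: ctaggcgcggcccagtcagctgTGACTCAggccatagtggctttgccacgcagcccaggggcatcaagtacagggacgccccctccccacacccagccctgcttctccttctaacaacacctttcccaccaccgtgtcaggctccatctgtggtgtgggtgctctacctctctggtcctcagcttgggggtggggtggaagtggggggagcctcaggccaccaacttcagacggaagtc
Socs3: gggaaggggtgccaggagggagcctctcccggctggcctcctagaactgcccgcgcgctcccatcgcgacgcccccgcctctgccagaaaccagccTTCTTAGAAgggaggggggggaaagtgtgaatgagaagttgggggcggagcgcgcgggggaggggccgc
In Il6 the matches were to AP-1 (position -249, counted from the start), C/EBP (-128, on the opposite strand) and NF-kB (-44). In Lif the match was to AP-1 (-228) and in Socs3 to STAT (-154). AP-1 matches also lay in the windows of Il11 (-98) and Osmr (3 bases after the start), which made 4 of 8 genes, with 10 windows, with an AP-1 match. Of all 32851 promoter windows of the table, counted by window and not by gene, 7.81% held it. The corresponding shares were 8.30% for STAT, 1.15% for its STAT3 form, 1.63% for NF-kB, 1.79% for CRE and 10.8% for C/EBP. The Il6st, Lifr and Socs1 windows held none of these letters. A match describes the sequence and is not a measured binding site, and the number of genes is too small to read a share from.

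Lif, which encodes leukaemia inhibitory factor (ENSMUSG00000034394, chromosome 11, 4257557 to 4272514), fell as well but far less than Il6. Its control libraries held 3.5, 3.19 and 3.46 FPKM and its labelled libraries 2.34, 2.05 and 1.99 FPKM. The groups did not overlap, and labelled replicate 1 was the highest of its group. The mean fell from 3.38 ± 0.167 to 2.13 ± 0.189 FPKM (SD, n = 3), which is 37.2% lower, with a log2 change of -0.57 ± 0.07 (SE; limma, adjusted p = 0.000357). In the control libraries Lif and Il6 were at overlapping levels, whereas in the labelled libraries Lif remained at 179 to 266 reads per library and Il6 at 1 to 3.

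Il11, the gene of a cytokine known from fibroblast and stromal biology (ENSMUSG00000004371, chromosome 7, 4772373 to 4782859), was barely detected in either group. It stood at 0.312, 0.461 and 0.333 FPKM in the control libraries and at 0.266, 0.295 and 0.216 FPKM in the labelled libraries. The groups were adjacent without overlapping, and the counts behind them were at least 15 to 22 and 9 to 15 reads per library. In edgeR on recovered reads Il11 did not pass (log2 change -0.49, adjusted p = 0.23), nor in limma without a filter on low values (adjusted p = 0.193). The counting interval of its level in the labelled group relative to control ran from 0.457 to 1.10. Because its reads are lower bounds, this interval may be too wide and the edgeR p-value too large.

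Among the receptor genes, Osmr and Lifr fell more than 2-fold and Il6st by 23.1%. Osmr (ENSMUSG00000022146, chromosome 15, 6813577 to 6874969), the oncostatin M receptor gene, was at 7.96, 8.05 and 8.16 FPKM in the control libraries and 3.17, 3.10 and 3.38 FPKM in the labelled libraries. The groups were far apart relative to their spread, with means of 8.06 ± 0.103 and 3.22 ± 0.147 FPKM (SD, n = 3). This was a 2.5-fold difference resting on 848 reads or more per library, or -1.20 ± 0.04 on the log2 scale (SE; limma, adjusted p = 4.32e-07). Lifr (ENSMUSG00000054263, chromosome 15, 7129559 to 7197489), the LIF receptor gene, was at 3.58, 4.05 and 3.89 FPKM against 1.70, 1.89 and 1.62 FPKM. It too showed no overlap, and its mean fell 2.21-fold, from 3.84 ± 0.242 to 1.74 ± 0.141 FPKM (SD, n = 3), or -0.96 ± 0.07 on the log2 scale (SE; limma, adjusted p = 2.01e-05). The genes lie next to each other on opposite strands, with 254589 bases and no other gene of the expression table between them by the authors' coordinates.

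Il6st (ENSMUSG00000021756, chromosome 13, 112464070 to 112510086), which encodes gp130, had the highest FPKM of the receptor genes. It held 21.2, 21.7 and 20.9 FPKM in the control libraries and 16.4, 16.2 and 16.5 FPKM in the labelled libraries, on 3781 to 5893 reads per library. The groups did not overlap, and both were tight. The mean fell from 21.3 ± 0.401 to 16.4 ± 0.171 FPKM (SD, n = 3), which is 23.1% lower, or -0.37 ± 0.03 on the log2 scale (SE; limma, adjusted p = 2.15e-05).

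Because the chains work as pairs with gp130, their levels were also set against Il6st within each library, which removes the scaling between libraries. These ratios of FPKM were chosen after the values were seen; 6 were computed, with Socs3 to Il6st, Osmr to Lifr and Socs1 to Socs3 as the others. The Osmr to Il6st ratio was 0.376, 0.371 and 0.390 in control and 0.193, 0.192 and 0.205 in labelled libraries. The Lifr to Il6st ratio was 0.169, 0.187 and 0.186 against 0.103, 0.117 and 0.0983. Both specific chains were thus lower relative to gp130 mRNA in every labelled library. The ratio of Il6ra, the IL-6 binding chain, to Il6st moved the other way, from 0.194, 0.187 and 0.199 to 0.304, 0.300 and 0.306. For each of the 3 the exact two-sided permutation p was 0.1 and 0.12 after Benjamini-Hochberg adjustment over the 6 ratios. The Osmr to Lifr ratio overlapped between the groups (2.10 ± 0.119 and 1.86 ± 0.227, SD, n = 3; exact permutation p = 0.2).

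**Figure D2:**
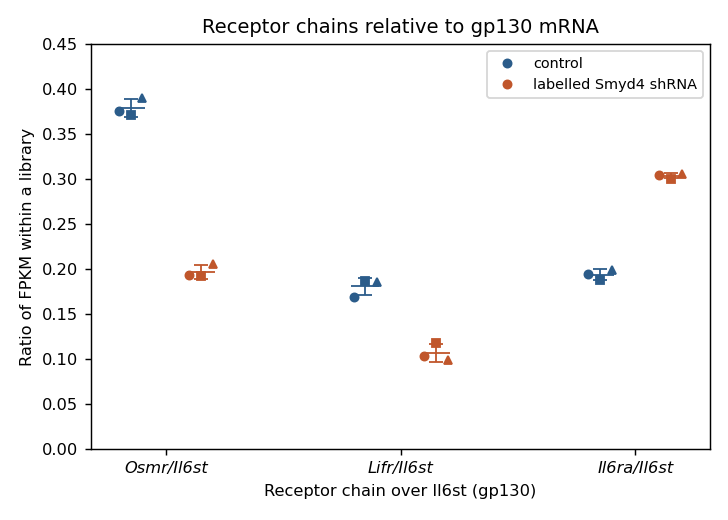
Ratio of the FPKM of Osmr, Lifr and Il6ra to that of Il6st within each library; points are libraries (circle, square and triangle for replicates 1, 2 and 3), horizontal bars with whiskers are the mean and SD of 3. Osmr and Lifr lie lower and Il6ra higher relative to Il6st in every labelled library than in any control library.

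The SOCS genes did not move together. Socs3 (ENSMUSG00000053113, chromosome 11, 117966079 to 117970047), whose product binds gp130 and inhibits the JAK kinases there, had the highest FPKM of the 9 genes in both groups. It held 27.2, 25.1 and 26.5 FPKM in the control libraries and 18.0, 17.6 and 18.1 FPKM in the labelled libraries. No labelled library came near the lowest control, and the mean fell from 26.3 ± 1.04 to 17.9 ± 0.231 FPKM (SD, n = 3), 31.9% lower, or -0.54 ± 0.03 on the log2 scale (SE; limma, adjusted p = 8.3e-06). Socs2 (ENSMUSG00000020027, chromosome 10, 95385362 to 95417180), best known as a brake on growth hormone signalling, was at 4.68, 4.57 and 4.56 FPKM against 2.91, 2.87 and 2.67 FPKM. Its groups did not overlap either, and its mean was 38.9% lower, or -0.62 ± 0.05 on the log2 scale (SE; limma, adjusted p = 3.02e-05).

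Socs1 (ENSMUSG00000038037, chromosome 16, 10782240 to 10785536), which inhibits JAK kinases directly and is best known from interferon signalling, was at 9.01, 8.68 and 9.15 FPKM in the control libraries and at 10.3, 9.34 and 10.3 FPKM in the labelled libraries. Labelled replicate 2 lay close to the control range, though the groups did not overlap. The mean rose 1.11-fold, from 8.95 ± 0.239 to 9.97 ± 0.547 FPKM (SD, n = 3), or 0.15 on the log2 scale (95% confidence interval 0.04 to 0.25; limma, adjusted p = 0.0293). This call was lost in edgeR (adjusted p = 0.131), in DESeq2 (0.356) and in limma without a filter on low values (0.0617) or with libraries scaled to equal sums (0.0554). It was also lost in limma without control replicate 1 (adjusted p = 0.0633) or 2 (0.0938) and without labelled replicate 1 (0.0918) or 3 (0.0824). Over 18 alternatives its adjusted p ranged from 0.00839 to 0.356. The recovered reads of Socs1 are lower bounds, so its edgeR and DESeq2 p-values may be too large. Relative to Socs3, Socs1 stood at a ratio of 0.341 ± 0.00786 in the control and 0.557 ± 0.0237 in the labelled libraries (SD, n = 3; exact permutation p = 0.1, adjusted over the 6 ratios p = 0.12).

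Levels of different genes can be compared on the FPKM scale only as far as the gene lengths behind it hold. These were, for example, 12113 bases for Osmr and 2428 for Il6, and ranges over libraries do not cover an error in them. On this scale the order in the control libraries was Socs3, Il6st, Socs1, Osmr, Socs2, Lifr, Lif, Il6 and Il11. Neighbours in that order did not overlap in range except Lif and Il6, at 3.38 and 3.19 FPKM. In the labelled libraries the first 5 places were unchanged, with Osmr (3.22 FPKM) and Socs2 (2.82 FPKM) closer together. Lif (2.13 FPKM) then lay above Lifr (1.74 FPKM), and Il6 took the last place below Il11 (0.259 FPKM). No neighbouring ranges overlapped in the labelled group.

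**Figure D3:**
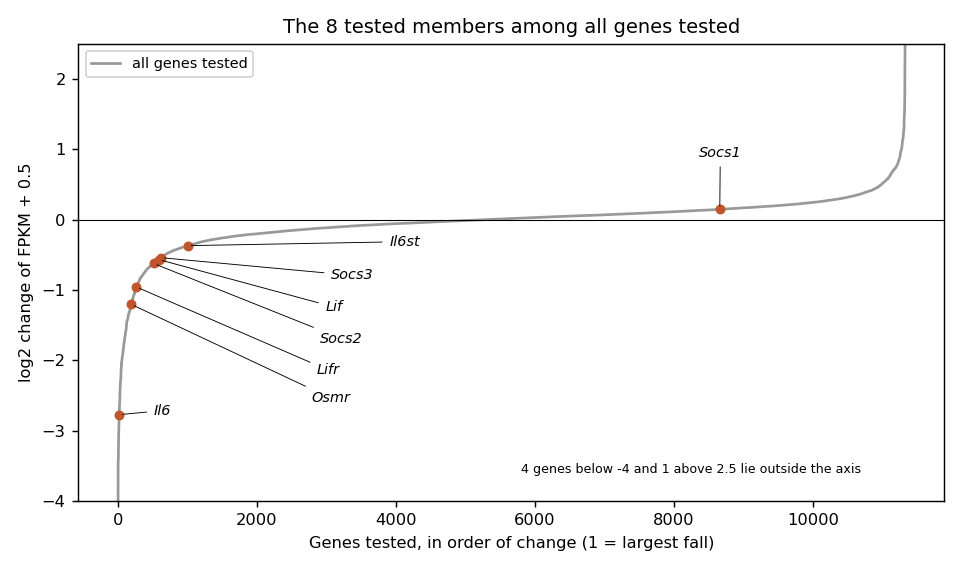
Log2 change of FPKM + 0.5 of the 11325 genes tested, in order from the largest fall to the largest rise (grey line), with the 8 tested members marked; the axis is limited to -4 to 2.5. Il6 sits at place 21, Osmr at 193 and Lifr at 268, Socs2, Lif and Socs3 between 516 and 620, Il6st at 1008, and Socs1 among the small rises.

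The rest of the pathway was described by 8 lists, counted against the same background of 23.3% lower and 25.1% higher. Of the other ligand genes, 3 were tested, of which 2 fell. Ctf1, the cardiotrophin-1 gene, fell from 2.04 ± 0.260 to 1.25 ± 0.217 FPKM (SD, n = 3; limma, adjusted p = 0.00638), and Clcf1, whose product acts through the CNTF receptor, from 12.8 to 10.8 FPKM (limma, adjusted p = 0.00789). Of the other receptor chains, 2 were tested. Il6ra rose from 4.11 ± 0.0520 to 4.96 ± 0.0977 FPKM (SD, n = 3; log2 change 0.24; limma, adjusted p = 0.00171), and Il11ra1 was at 1.11 and 1.18 FPKM and did not pass. Thus the chain that binds IL-6 was higher in the libraries in which Il6 itself was near 0.

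Among JAK and STAT genes, 0 of 8 tested were higher, 2 lower and 6 did not pass in limma. Stat3, the main STAT factor of gp130 signalling, fell from 18.8 ± 0.50 to 10.7 ± 0.252 FPKM (SD, n = 3; log2 change -0.79; limma, adjusted p = 9.61e-07). This was a larger fall than that of Il6st, Lif or Socs3. Jak2 fell from 14.0 to 12.3 FPKM (limma, adjusted p = 0.00132), while Jak1 was at 24.2 and 23.7 FPKM and Tyk2 at 8.03 and 8.25 FPKM, and neither passed. In edgeR on recovered reads 4 genes of this list were lower and 1 higher, and with equal sums in limma 4 were lower.

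Of the other SOCS family genes, 1 of 4 tested rose, 2 fell and 1 did not pass. Socs7 rose from 8.10 to 9.14 FPKM (limma, adjusted p = 0.0036), Socs6 fell from 6.06 to 4.94 FPKM (0.00219) and Socs5 from 28.1 to 25.3 FPKM (0.00356). Without labelled replicate 1, 2 genes of this list were higher. Among PIAS proteins, which inhibit STAT factors, and JAK-STAT phosphatases, 1 of 7 tested was higher and 3 were lower. Pias3, named for its inhibition of STAT3, rose from 13.5 to 16.1 FPKM (limma, adjusted p = 0.000728). Pias2 fell from 19.0 to 14.8 FPKM (limma, adjusted p = 4.16e-05), and Ptpn2, a phosphatase of JAK and STAT proteins, fell from 9.71 to 8.68 FPKM (0.0141). The third was Ptpn11, which encodes the phosphatase SHP2, at 42.7 and 40.5 FPKM (limma, adjusted p = 0.0479). Without control replicate 2 the calls of Ptpn2 (limma, adjusted p = 0.0522) and Ptpn11 (0.0508) were both lost, which left 1 gene of the list lower. The Ptpn2 call was also lost in DESeq2 (adjusted p = 0.0865), with a range from 0.0088 to 0.0865 over 18 alternatives. The Ptpn11 call was lost in 10 of 18 alternatives, every one that left out a library among them, with an adjusted p from 0.00888 to 0.156.

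The list of STAT3 target and acute phase genes had 16 tested members, of which 4 were higher and 11 lower; their median log2 change was -0.30. Saa3, an acute phase serum amyloid gene, dropped from 119.5 ± 5.20 to 0.220 ± 0.146 FPKM (SD, n = 3; limma, adjusted p = 9.14e-09), and Cebpd, an acute phase transcription factor, from 30.4 to 3.48 FPKM (2.26e-09). Saa3 too passed the filter only through the control libraries and so had to differ. Vegfa, the vascular growth factor gene, rose from 59.7 to 70.4 FPKM (limma, adjusted p = 8.96e-05) and the survivin gene Birc5 from 41.6 to 45.9 FPKM (0.0021). These genes answer to several pathways, and the list was drawn up with earlier results of these data known.

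Receptor chains of other JAK-coupled cytokines had 9 of 10 tested members lower and 0 higher in limma, and a median of -0.38 on the log2 scale. With 1 library left out 7 to 8 were lower, and 7 after quantile normalization or without the trend. Il3ra (limma, adjusted p = 0.0491) and Ifnar2 (0.0452) lay close to the threshold. Both passed in edgeR (adjusted p = 0.0342 and 0.0096) but not in DESeq2 (0.183 and 0.0833). Il4ra is counted in this list and in 1 other. The fall of receptor mRNA was thus also counted outside the gp130 family. Crlf2, a chain of the receptor for thymic stromal lymphopoietin, went from 3.27 ± 0.332 to 0.232 ± 0.0822 FPKM (SD, n = 3; limma, adjusted p = 1.91e-06) on 104 to 135 and on 6 to 12 reads per library. Like Il6, it passed the filter only through the control libraries and so had to differ, and its place in the count is no support. Il13ra1, the interleukin-13 receptor chain, fell from 25.6 ± 0.265 to 12.3 ± 0.276 FPKM (SD, n = 3; limma, adjusted p = 1.3e-07). Of 8 genes that control the decay of cytokine mRNA, 1 was higher and 3 were lower. Zc3h12a, which encodes the nuclease regnase-1 that degrades Il6 mRNA, fell from 17.4 ± 0.0589 to 4.52 ± 0.0836 FPKM (SD, n = 3; log2 change -1.83; limma, adjusted p = 8.89e-09). Zfp36l1 fell from 5.08 to 3.16 FPKM (limma, adjusted p = 0.00103) and Zfp36l2 rose from 101.5 to 107.8 FPKM (0.0139), a call that was lost with libraries scaled to equal sums (0.133; range 0.00499 to 0.133 over 18 alternatives). Without labelled replicate 2, and also in edgeR and in DESeq2, 5 genes of the list were lower.

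**Figure D4:**
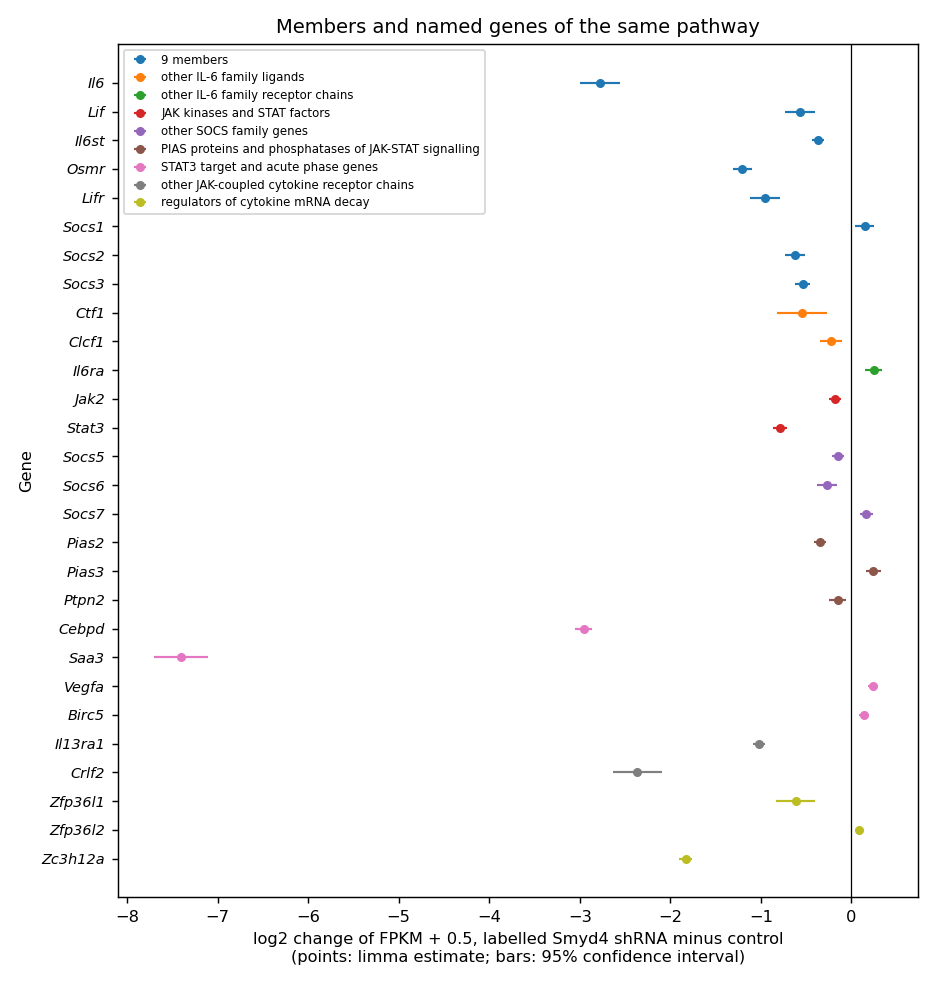
Log2 change of FPKM + 0.5 (labelled Smyd4 shRNA minus control) of the 8 tested members and of the genes named from the 8 pathway lists; points are limma estimates from 3 against 3 libraries and bars their 95% confidence intervals, coloured by list. The members lie left of 0 except Socs1, Stat3 lies at -0.79 and Zc3h12a at -1.83, and Saa3 at -7.40 sets the width of the axis.

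The genes with the profile most like that of Il6 were sought among the 7833 genes whose mean reached 5 FPKM, by Euclidean distance over the 6 libraries after subtracting the control mean on the log2(FPKM + 0.5) scale. They were Nefm (distance 0.167; 15.6 to 1.87 FPKM), a neurofilament gene, Ccl2 (0.192; 205 to 31.8 FPKM), a monocyte chemoattractant gene, and Chrnd (0.193; 11.6 to 1.21 FPKM), a subunit gene of the muscle acetylcholine receptor. With 2 groups of 3 libraries this likeness reflects the size of the difference between the groups, which for Il6 is the understated value given above. The genes nearest to Socs1 were Sesn1 (distance 0.0483; 13.5 to 14.8 FPKM), Capn10 (0.0494; 6.59 to 7.41 FPKM) and Abhd12 (0.0495; 28.3 to 31.8 FPKM).

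The authors' deposited table, which lists called genes only, holds 7 of the 9 genes, Il11 and Socs1 being the others. Its log2 fold changes are -1.31 for Osmr, -1.11 for Lifr, -0.69 for Socs2, -0.63 for Lif, -0.55 for Socs3 and -0.38 for Il6st in the authors' deposited table. All 7 have the direction found here, from the same libraries.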

How the data were processed

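The 6 libraries of HL-1 RNA, 3 per group by the sample titles, were compared. TopHat2 2.0.9, Bowtie2 2.0.6 and the build GRCm38 are listed in the submitters' processing notes; no read counter, annotation, strand setting or statistical test is named in the sources used here. The authors deposited FPKM for 22246 genes and a comparison table of 5616 called genes, with a normalized signal per library (read count over 1 size factor, by its values), log2 fold changes, p-values and adjusted p-values. FPKM times length over that deposited signal was constant, so both share the size factors and reads could be recovered. For the 5616 called genes, 100% of the deposited signals in each library were whole multiples of 1 unit. Over all genes 100% of values were whole within 0.01. Where the authors gave no length, the length was chosen to make the reads whole, so this is no check for those genes. Lengths came from the authors for 5616 genes, from GENCODE M21 for 13309, and were the smallest possible for 3321 (Il11 and Socs1 included), whose reads are lower bounds. No other annotated gene overlaps a member.

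Genes whose mean reached 1 FPKM were tested on log2(FPKM + 0.5) with limma 3.58.1 (empirical Bayes with trend, R 4.3.3), Benjamini-Hochberg adjusted over 11325 genes, threshold 0.05, after a test on simulated data. Single values were compared by exact permutation. Alternatives were other pseudocounts, filters and scalings, a replicate block, each library left out, edgeR 4.0.16 and DESeq2 1.42.0 on recovered reads. Named were all members, Smyd4, up to 2 genes per direction and list with the smallest adjusted p, 2 markers per cell type with the highest means, and the 3 nearest profiles; further genes named were chosen after their values were seen, and some genes under the rule are not reported here. Symbols matched 22134 genes by identifier. Members and lists were chosen with earlier results of these data known.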

Additional observations from a re-analysis of the deposited data

How the results depend on the processing

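The falls of Il6, Lif, Il6st, Osmr, Lifr, Socs2 and Socs3 kept their direction and stayed past the threshold in each of the 17 or 18 alternatives in which each gene was tested. With a minimum mean of 5 FPKM only 3 members were lower because the others were not tested. The Socs1 call was lost at a log2 change of 0.15 without a filter, 0.11 with equal sums, 0.15 in edgeR and 0.16 in DESeq2, where 0 members were higher, and it was kept in the other alternatives that leave all libraries in. Leaving out 1 library at a time gave Socs1 0.12 to 0.19, and 0 to 1 members higher. Il11 was at -0.19 on the main scale, -0.49 in edgeR and -0.50 in DESeq2, without passing. Smyd4 passed only with equal sums (-0.11). Counts of the lists moved as follows. For other ligands, 0 were higher without a filter, with equal sums, in edgeR and in DESeq2 (0 to 1 with a library left out), and 1 was lower at 5 FPKM. At 5 FPKM 0 other receptor chains of the family were higher and 5 other JAK-coupled chains were lower. Of JAK and STAT genes 1 was higher after quantile normalization and in edgeR, and 4 were lower with equal sums and in edgeR. Of other JAK-coupled chains 1 was higher without a filter, in edgeR and in DESeq2. Of mRNA decay regulators 0 were higher with equal sums and 5 lower in edgeR and in DESeq2. With 1 library left out, 1 to 2 other SOCS genes were higher, 1 to 2 PIAS and phosphatase genes lower and 2 to 5 decay regulators lower. Col3a1, not called, turned to -0.0141 with equal sums. Where not stated above, the cause was not tested. Same-numbered libraries did not deviate together (correlations of -0.0324, 0.0182 and 0.00689). This gave no ground for pairing them by number, but it cannot show whether they were prepared together. With the replicate block 5141 genes were called in place of 5474, 7 members lower and 1 higher. Over all genes, higher calls outnumbered lower ones in limma (2839 and 2635) but not with equal sums (2200 and 3113), without a filter (2582 and 3037), in edgeR (3204 and 3620), in DESeq2 (2555 and 3010) or without labelled replicate 1 (2373 and 2422). Depth limits Il11 and the labelled level of Il6, which rest on few reads per library (at least 9 to 22 for Il11, whose reads are lower bounds, and 1 to 3 for Il6).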
